A study of Saccharomyces cerevisiae with 12 samples.

Results

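The genes examined here encode the proteasome of budding yeast (Saccharomyces cerevisiae) and its transcription factor. They were the protein-coding rows of the deposited table named PRE, PUP, SCL, RPN or RPT followed by a number. The rule found 34 genes among 6692 protein-coding genes and 7126 rows in all. Of these, 14 belong to the core particle (PRE, PUP and SCL), 19 carry the names of the regulatory particle (RPN and RPT), and 1 is RPN4, the transcription factor, which is described apart. RPN14 follows the naming rule but encodes an assembly chaperone, not a subunit, and the small subunit gene SEM1 falls outside the rule.

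All 12 libraries came from the haploid laboratory strain BY4741, with 3 biological samples per strain. Per the design text each sample gave 1 library without and 1 with the compound, so there were 4 groups of 3 libraries, and the groups of a strain share their samples. The groups were wild type without compound, wild type with poacic acid (spelled poacid acid in the labels), the slt2 mutant without compound and the slt2 mutant with poacic acid. Poacic acid is a plant-derived stilbenoid that interferes with the cell wall, and it was given at 100 µg/ml for 1 h per the treatment and design texts, while the growth text of the labels speaks of 2 h. SLT2 encodes the MAP kinase of the cell wall integrity pathway, and the labels give the mutation only as slt2, with no allele or clone.

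The proteasome degrades proteins that carry ubiquitin. Its core particle is a barrel of outer rings of alpha subunits and inner rings of beta subunits, and the regulatory particle caps it with a base, which unfolds substrates, and a lid, which removes ubiquitin. In yeast most of these genes are driven together by Rpn4, a short-lived factor that binds a promoter element named PACE and is itself destroyed by the proteasome, so that loss of proteasome activity raises proteasome gene expression.

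SLT2 read 42.1 to 50.0 RPKM (reads scaled to gene length and to library size) in untreated and 194 to 236 RPKM in treated wild type. It read 0 to 0.198 RPKM in slt2, so its level sorted the libraries by strain as labelled. Depth ran from 3462651 to 10542488 reads per library (median 6671236), and the members held from 80 reads (RPN14) to 5381 reads (RPN1) in a library. In several members the treated wild-type libraries spread widely, with replicate 2 highest and replicate 3 lowest, as in RPN9 (55.4, 77.0 and 32.1 RPKM). The share of reads in rRNA genes was 0.0716 to 0.585% in untreated wild type, 2.09, 0.0763 and 3.83% in treated wild type and 3.76 to 5.18% in all slt2 libraries, so it differed between the strains as well.

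The promoters were read from the R64 genome sequence and annotation of RefSeq, the build the labels name, and the table gave all 34 genes the same coordinates as that annotation. The window of each gene ran from 250 bases before the start codon to 50 bases after it. The motif searched was PACE, GGTGGCAAA, on both strands. It stood in 27 of the 34 windows (79.4%) and in 72 of 6020 windows of protein-coding genes (1.2%). The shorter form GTGGCAAA, which every PACE match contains, stood in 30 of 34 (88.2%), against 2.39% of all windows. These sequences show the match in capitals within the gene's own 5′ to 3′ direction, and they are given for the genes whose values the results turn on and for the 3 genes with the shorter form only:

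RPN2, chrIX:220803-220827, minus strand: ttattttcGGTGGCAAAactggata
RPT5, chrXV:544857-544881, plus strand: caatatgtGGTGGCAAAaatgaatt
RPT2, chrIV:437908-437932, plus strand: ttttctccGGTGGCAAAtgtctctt
RPN9, chrIV:1322088-1322112, plus strand: tttcatccGGTGGCAAAagtaagaa
RPN12, chrVI:252400-252424, plus strand: acacattaTTTGCCACCcattgaaa
PRE6, chrXV:255220-255244, plus strand: aagattctTTTGCCACCggaaggga
PRE5, chrXIII:901555-901578, plus strand: attatagaGTGGCAAAattaaaaa
PUP1, chrXV:631893-631916, minus strand: ccggccgaGTGGCAAAataccaaa
RPN8, chrXV:817087-817110, minus strand: atacctcaGTGGCAAAtcgttact

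The element lay in a narrow zone. Each of the 30 genes had 1 match of the shorter form, which began 83 to 182 bases before the start codon (median 125 bases). The match read on the gene's own strand in 22 genes and on the other strand in 8, as in RPN12 and PRE6 above. All 14 core genes and 16 of the 19 regulatory genes held it. The windows of RPN10, RPN13, RPN14 and RPN4 held neither form, which says only that these letters were not in those windows.

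**Figure D1:**
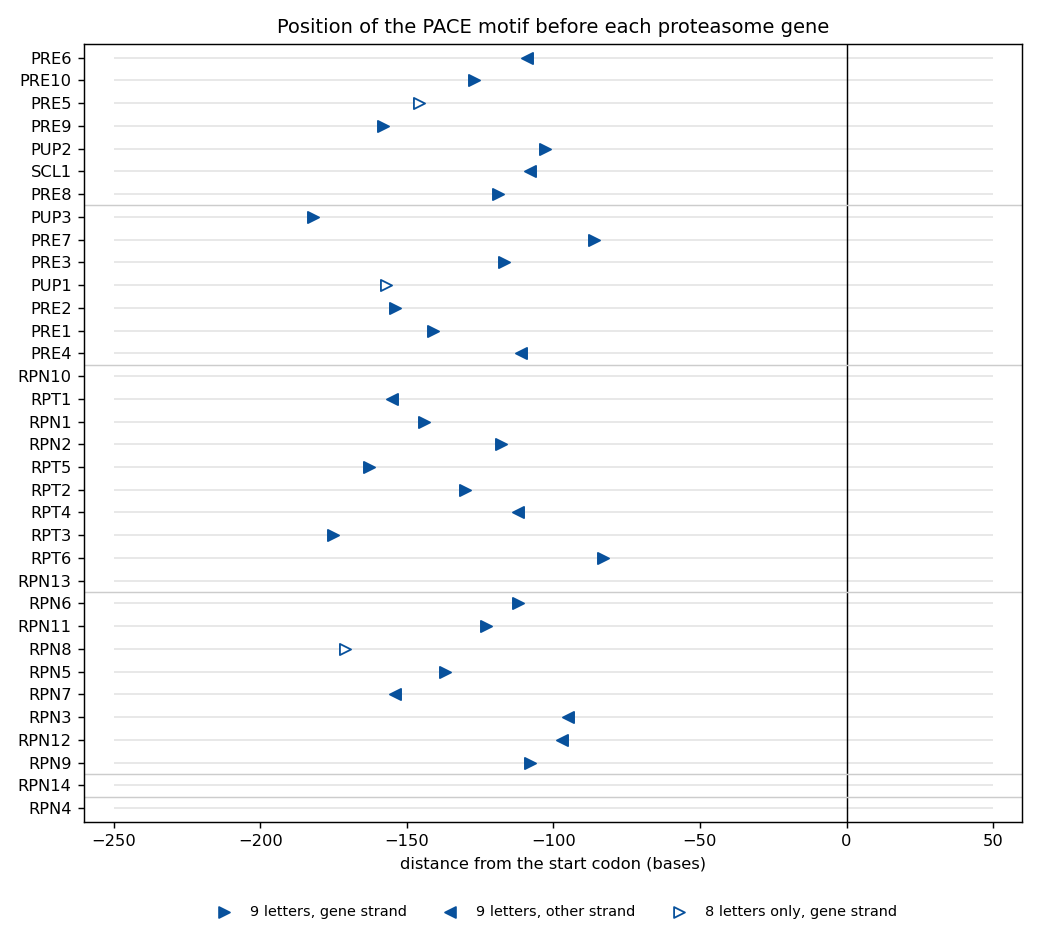
Position of the PACE match before each proteasome gene: the horizontal axis gives the distance from the start codon in bases, and each row is 1 gene, grouped as alpha ring, beta ring, base, lid, RPN14 and RPN4. Filled arrowheads are matches of all 9 letters and open ones of the last 8 only, and they point along the strand of the match; the 30 matches lie 83 to 182 bases upstream, and 4 genes have none.

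The whole windows are shown for RPN2, the single member called higher with the compound in the fit without pairing, and for RPN4, the regulator. In RPN2 the capitals mark PACE. In RPN4 they mark the single match of a loose Rlm1 pattern (CTA and TAG with any 4 bases between), 68 bases before the start codon. Rlm1 is a transcription factor that Slt2 activates, and its known site takes only A or T between the ends. In the RPN4 match the bases between the ends are ATAG, with a G, so it is not of that known form. This loose pattern stood in 5.55% of all windows and in 4 of the 34. Neither the Pdr1 and Pdr3 motif TCCGNGGA nor the Yap1 motifs TTACTAA and TTACGTAA were found in the RPN4 window (1.21, 7.49 and 0.664% of all windows).

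RPN2, chrIX:220651-220950, minus strand: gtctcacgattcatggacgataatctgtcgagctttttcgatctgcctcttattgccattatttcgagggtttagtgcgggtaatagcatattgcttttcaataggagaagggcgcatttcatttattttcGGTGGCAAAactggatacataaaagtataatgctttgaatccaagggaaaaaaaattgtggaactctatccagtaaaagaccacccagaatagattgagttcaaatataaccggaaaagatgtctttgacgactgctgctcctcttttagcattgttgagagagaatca
RPN4, chrIV:416659-416958, minus strand: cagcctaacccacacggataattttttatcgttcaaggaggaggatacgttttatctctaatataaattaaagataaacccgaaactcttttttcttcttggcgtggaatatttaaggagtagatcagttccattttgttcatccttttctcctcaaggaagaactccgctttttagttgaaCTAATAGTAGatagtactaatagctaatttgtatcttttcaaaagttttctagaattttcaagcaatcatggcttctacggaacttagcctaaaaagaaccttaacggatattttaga

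The core particle genes were expressed within a factor of 1.96 of each other. Their mean RPKM over the 12 libraries ran from 120 (PRE8, an alpha subunit) to 236 (PRE6, another alpha subunit), with a median of 158. The alpha ring and the beta ring had the same median, 158 RPKM each. Of the beta genes, PRE3, PUP1 and PRE2, which encode the proteolytic subunits, averaged 173, 158 and 157 RPKM. The lowest beta gene was PRE4 at 126 RPKM and the highest PUP3 at 202 RPKM. RPKM is scaled to gene length, so these levels can be set side by side. PRE3, the 1 member with an intron, has a listed length of 764 bases and an exon length of 648 bases, and the values of the table were found to be scaled to exon length.

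Regulatory particle genes spread more widely and, as medians, lay lower. Their mean RPKM had a median of 113 and ran from 17.0 (RPN14) to 234 (RPN10, a ubiquitin receptor, counted here with the base). Of the 10 base genes, RPT1, a subunit of the ATPase ring, averaged 206 RPKM and RPN13, another ubiquitin receptor, 73.5 RPKM. The 8 lid genes ran from 49.9 RPKM (RPN9) to 126 RPKM (RPN6), with a median of 94.3 RPKM. RPN11, the deubiquitinase of the lid, averaged 113 RPKM. In every library the core median exceeded the regulatory median, by a ratio of 1.34 to 1.56. RPT1 overlaps the gene YKL145W-A on the same strand over 93 of its 1404 bases, so some of its reads may be shared, and no other member overlaps a gene of the table.

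By its mean over all 12 libraries, RPN4 stood below the subunit genes. It averaged 49.2 RPKM, next to RPN9 (49.9 RPKM), but their order differed between the strains. In untreated wild type RPN4 averaged 46.5 ± 7.38 RPKM and RPN9 59.3 ± 9.05 RPKM (SD, n = 3), with overlapping libraries. In untreated slt2 RPN4 averaged 48.1 ± 2.17 RPKM and RPN9 37.0 ± 4.48 RPKM (SD, n = 3), and every RPN4 value lay above every RPN9 value. The chaperone gene RPN14 was lower still, at 12.3 to 19.7 RPKM. Among protein-coding genes the mean of RPN4 stood at percentile 74.6, RPN14 at 42.2, RPN9 at 75.0 and PRE6 at 94.1.

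**Figure D2:**
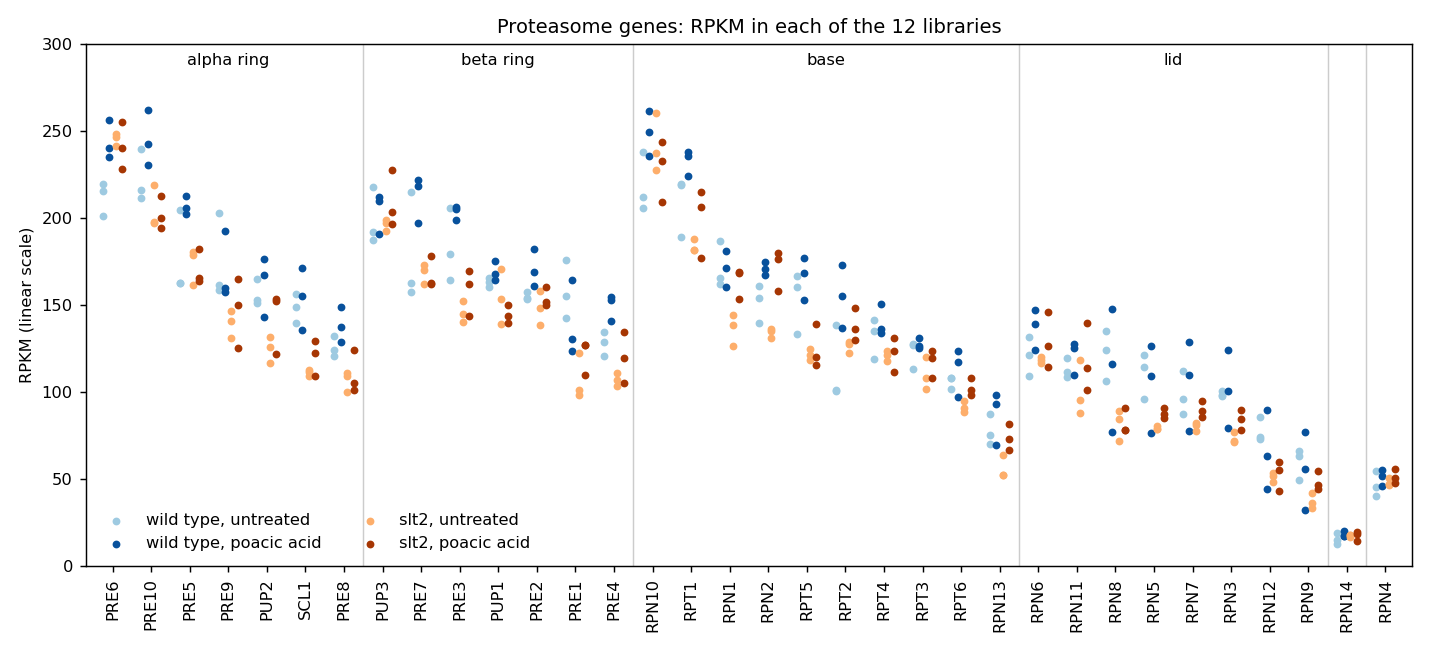
RPKM of each proteasome gene (vertical axis, linear) in each of the 12 libraries, with genes ordered by mean level within the alpha ring, the beta ring, the base, the lid, RPN14 and RPN4. Each point is 1 library and colours give the 4 groups; PRE6 and RPN10 are the highest at means of 236 and 234 RPKM, and RPN14 the lowest at 17.0 RPKM.

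With poacic acid in wild type, no proteasome gene passed in the main fit, which does not pair the libraries of a sample. With that pairing 1 member, RPT2, was called higher, and the share of all genes called is not given there. The values that follow are of the main fit. The comparison asks which genes the compound alters in cells with Slt2. Of the 34 members 0 rose and 0 fell at adjusted p under 0.05 (limma on log2 of RPKM + 1, Benjamini-Hochberg correction over 6222 genes), where 3.87% of all tested genes rose and 1.96% fell. At an unadjusted p under 0.05 there were 2 members, RPT2 and PRE7, against 21.5% of all genes. The 95% interval of every member lay within 1 on the log2 scale, the widest bounds being −0.73 for RPN12 and 0.75 for RPT2 on the log2 scale. The interval lay within 0.5 on the log2 scale in both directions for 28 of 34.

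Most members had small positive values. The log2 difference was above 0 in 27 of 34, against 53.4% of all tested genes, and its median was 0.14 in the core and 0.09 in the regulatory particle, against 0.02 over all genes. Without treated wild-type replicate 3 it was above 0 in 32 of 34, with medians of 0.16 in the core, 0.17 in the regulatory particle and 0.04 over all genes. The lid median was −0.05 with and 0.13 without that library. The treated libraries lay above all untreated ones for 5 members (PRE2, PRE4, PRE6, RPN2 and RPT1) and below them for 0, where 13.2 and 9.39% of all tested genes did so. PRE2, the gene of the chymotrypsin-like protease subunit, read 157, 154 and 153 RPKM without and 161, 169 and 182 RPKM with the compound. Its log2 difference was 0.14 (95% interval −0.07 to 0.35, adjusted p = 0.457, limma with Benjamini-Hochberg correction).

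RPT2, an ATPase subunit that helps open the gate of the core, had the largest difference in wild type. It read 101, 101 and 139 RPKM untreated and 155, 137 and 173 RPKM treated. The highest untreated library thus lay above the lowest treated one. The log2 difference was 0.46 (95% interval 0.17 to 0.75, adjusted p = 0.0646, limma), and it passed with each culture taken as its own pair, the replicate block (1 member called in place of 0), with library weights, and without untreated replicate 3 or treated replicate 2. In slt2 the same gene read 127, 128 and 123 RPKM untreated and 148, 130 and 136 RPKM treated, a log2 difference of 0.13 (adjusted p = 0.648).

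No change of RPN4 passed in any comparison. It read 39.9, 45.2 and 54.4 RPKM in untreated and 51.3, 55.0 and 45.9 RPKM in treated wild type. In slt2 it read 50.6, 46.7 and 47.1 RPKM untreated and 55.8, 50.3 and 47.7 RPKM treated. Groups overlapped in all 4 pairwise comparisons. The log2 difference with the compound was 0.13 in wild type (95% interval −0.15 to 0.41, adjusted p = 0.618) and 0.09 in slt2 (−0.19 to 0.37, adjusted p = 0.766, limma for both). The difference of these responses was −0.04 (−0.44 to 0.35, adjusted p = 0.948). Between the strains it was 0.06 without (−0.22 to 0.34, adjusted p = 0.812) and 0.02 with the compound (−0.27 to 0.30, adjusted p = 0.96). RNA level says nothing of the amount of Rpn4 protein, which is controlled by degradation.

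In slt2 cells 1 of the 34 members rose with poacic acid and 0 fell, where 5.29% of all tested genes rose and 3.17% fell. The member was RPN2, which encodes a large scaffold subunit of the base (R64 IX 217863–220700, minus strand). It read 131, 135 and 136 RPKM without and 176, 180 and 158 RPKM with the compound, so the groups did not overlap. The log2 difference was 0.35 (95% interval 0.14 to 0.56, adjusted p = 0.0433, limma with Benjamini-Hochberg correction). It was lost with the replicate block (0 members, adjusted p = 0.0512), rescaling (0.0753) and plain variances (0.0641), and without any 1 of 7 libraries: untreated wild-type replicate 1, treated wild-type replicate 1, the 3 untreated slt2 libraries and treated slt2 replicates 1 and 2 (adjusted p up to 0.182). In wild type RPN2 read 154, 140 and 161 RPKM untreated and 175, 167 and 171 RPKM treated, also without overlap, with a log2 difference of 0.17 (adjusted p = 0.336). The difference of the responses was 0.18 (−0.12 to 0.48, adjusted p = 0.685), so RPN2 was not shown to respond differently in the strains.

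No other member passed in slt2 cells. The log2 difference was above 0 in 27 of 34 (23 after median-of-ratios rescaling of the libraries), against 54.9% of all genes, with medians of 0.06 in the core, 0.13 in the regulatory particle and 0.03 over all tested genes. Treated and untreated libraries did not overlap for 9 members, all higher with the compound and all of the regulatory particle, where 18.2% of all tested genes were higher without overlap. These were RPN1, RPN2, RPN3, RPN5, RPN7, RPN9, RPN13, RPT2 and RPT6. RPN1, the other scaffold subunit of the base, read 127, 139 and 144 RPKM untreated and 169, 168 and 153 RPKM treated (0.26, 95% interval 0.04 to 0.49, adjusted p = 0.157). RPN13 had the largest value, 0.40 (0.07 to 0.72, adjusted p = 0.13), with 63.6, 51.9 and 51.9 RPKM untreated and 66.5, 73.0 and 81.3 RPKM treated. In all, 3 members had an unadjusted p under 0.05, against 22.4% of all genes.

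**Figure D3:**
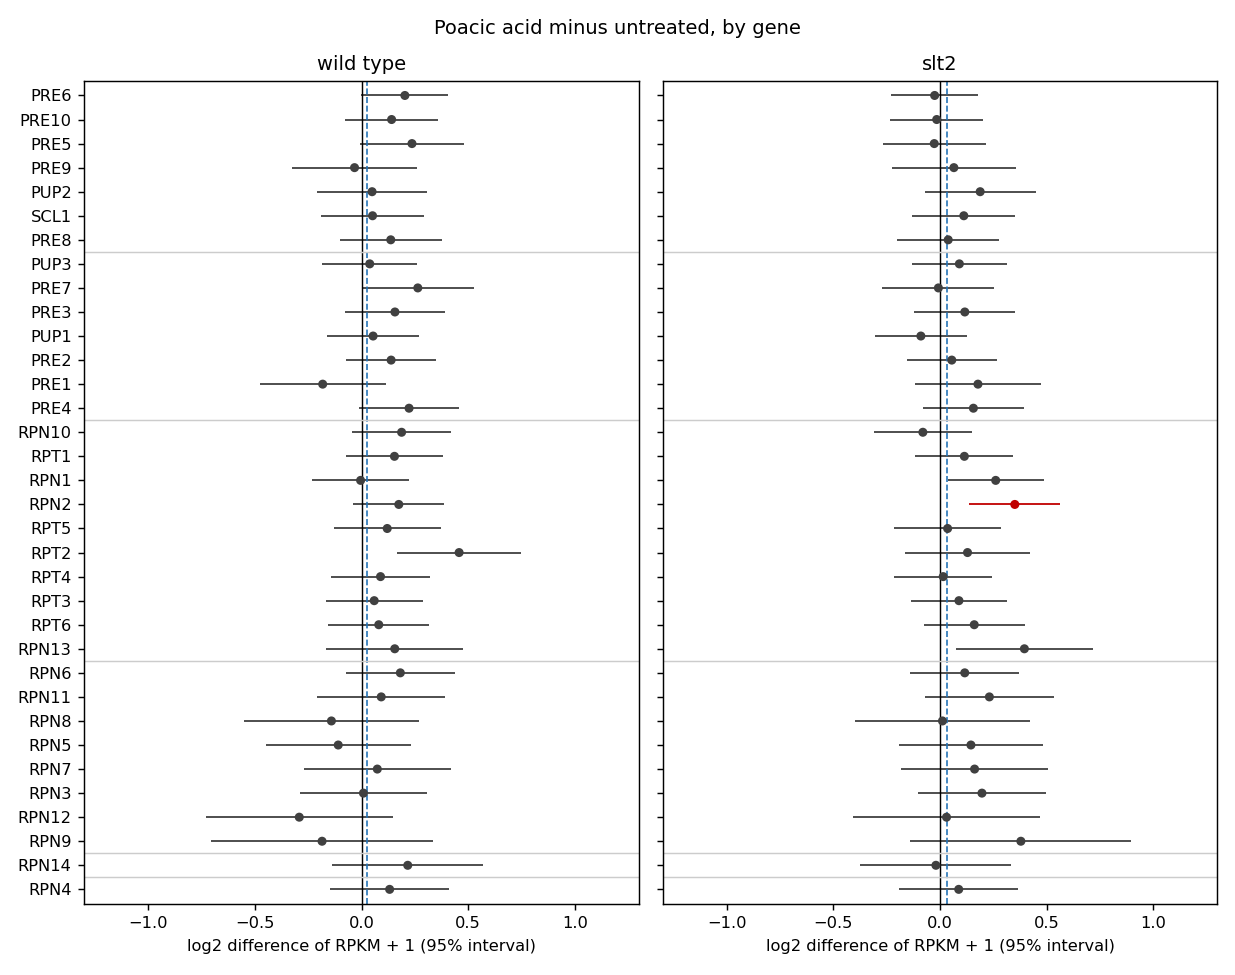
Log2 difference of RPKM + 1 between treated and untreated libraries (horizontal axis) for each proteasome gene in wild type (left) and slt2 (right), 3 libraries per group. Points are limma estimates of the fit without pairing, bars 95% intervals and red a call at adjusted p under 0.05. The solid line is 0 and the dashed line the median of all tested genes. RPN2 in slt2, at 0.35, is the 1 call.

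No proteasome gene was shown to respond differently in the strains. The response of slt2 less that of wild type passed for 0 of 34 members in either direction, where 0.723% of all tested genes were higher and 0.996% lower, and 0 members had an unadjusted p under 0.05 (11.9% of all genes). It was above 0 in 17 members and below 0 in 17 (above 0 in 52% of all genes). The core median was −0.08 and the regulatory median 0.09. Without treated wild-type replicate 3 these medians were −0.08 and −0.02, the lid median was 0.04 in place of 0.17, and 13 members were above and 21 below 0. These intervals were wide: 16 of 34 lay within 0.5 on the log2 scale in both directions, and that of RPN9 reached from −0.17 to 1.30.

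Without the compound, most proteasome genes read somewhat lower in slt2 than in wild type, but none passed the test. Of the 34 members 0 were higher and 0 lower at adjusted p under 0.05, where 0.884% of all tested genes were higher and 0.868% lower. At an unadjusted p under 0.05 there were 15 members, against 24.3% of all genes. The log2 difference was below 0 in 29 of 34, against 59.6% of all tested genes, or in 24 of 34 after rescaling. Its median was −0.18 in the core, −0.21 in the regulatory particle and −0.08 over all genes. All slt2 libraries lay below all wild-type ones for 19 members and above them for 1, PRE6, where 23.8 and 11.3% of all tested genes did so.

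Values per library show the size of these differences. PRE1, a beta subunit gene, read 142, 176 and 155 RPKM in wild type and 101, 123 and 97.9 RPKM in slt2, without overlap. Its log2 difference was −0.55 (95% interval −0.85 to −0.26, adjusted p = 0.0595, limma). SCL1, an alpha subunit gene, read 139, 149 and 156 RPKM in wild type and 111, 113 and 109 RPKM in slt2 (−0.41, adjusted p = 0.0758). PRE6 went the other way, with 201, 219 and 215 RPKM in wild type and 248, 247 and 241 RPKM in slt2 (0.21, 95% interval 0.01 to 0.42, adjusted p = 0.193).

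The lid accounted for the largest of these values. All 8 lid genes were below 0, with a median of −0.45, beside −0.18 in the base, −0.08 in the beta ring and −0.24 in the alpha ring. RPN9 had the lowest value of all members, −0.66 (−1.18 to −0.14, adjusted p = 0.127), with 62.8, 66.1 and 49.0 RPKM in wild type and 35.9, 41.9 and 33.1 RPKM in slt2. RPN12 read 73.8, 85.5 and 72.9 RPKM in wild type and 53.1, 48.3 and 51.5 RPKM in slt2 (−0.59, adjusted p = 0.113). Not all lid genes shared this. RPN6 read 121, 109 and 131 RPKM in wild type and 117, 118 and 120 RPKM in slt2, a log2 difference of −0.02 (adjusted p = 0.934).

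Treated wild-type replicate 3 had the same low lid values as the slt2 libraries. The lid median was 77.2 RPKM in that library and 109 and 124 RPKM in the other treated wild-type libraries. It was 96.6 to 113 RPKM in untreated wild type and 77.5 to 90.7 RPKM in the 6 slt2 libraries. The beta ring median of the same treated library was 182 RPKM, the highest of the 12, so the ratio of lid to beta ring was 0.423 there and 0.515 to 0.734 in the other 11 libraries. Within the lid the low values were those of RPN3, RPN5, RPN7, RPN8, RPN9 and RPN12 (79.0, 76.1, 77.3, 77.1, 32.1 and 43.8 RPKM), each the lowest of the wild-type libraries. RPN6 (139 RPKM) and RPN11 (125 RPKM) were not low there. These genes were picked out after their values were seen.

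The rRNA share moved with the lid. The 4 wild-type libraries with under 1% of reads in rRNA genes had lid medians of 96.6 to 124 RPKM, treated wild-type replicate 1 with 2.09% had 109 RPKM, and the 7 libraries with 3.76 to 5.18% had 77.2 to 90.7 RPKM. With the rRNA share as a covariate, on a log2 scale, the lid median of the untreated strain comparison was 0.01 in place of −0.45. This setting was added after the data were seen. The medians of the beta ring, base and alpha ring were −0.18, −0.11 and −0.11. Over all tested genes the median was 0.03 in place of −0.08, and the calls went from 109 to 1. All untreated slt2 libraries had a higher share than all untreated wild-type ones, so strain and rRNA share cannot be told apart within the untreated groups. The covariate fit cannot separate them there either. It keeps 1 mean per group, so its slope comes from the spread of the share within groups. That spread was widest in treated wild type (0.0763 to 3.83%), which holds replicate 3, the library with the low lid values. The value of 0.01 therefore cannot tell what the lid difference would be at an equal share. Leaving out treated wild-type replicate 3 keeps the untreated estimates as they are, and it took the calls over all genes, in either direction, from 109 to 604. In that fit 8 members were called lower in untreated slt2: PRE1, SCL1, RPN3, RPN5, RPN8, RPN9, RPN12 and RPN13. Without treated wild-type replicate 2 there were 5 (PRE1, SCL1, RPN3, RPN8 and RPN12). The calls over all genes are not given for that fit, so its count cannot be read as particular to the members.

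**Figure D4:**
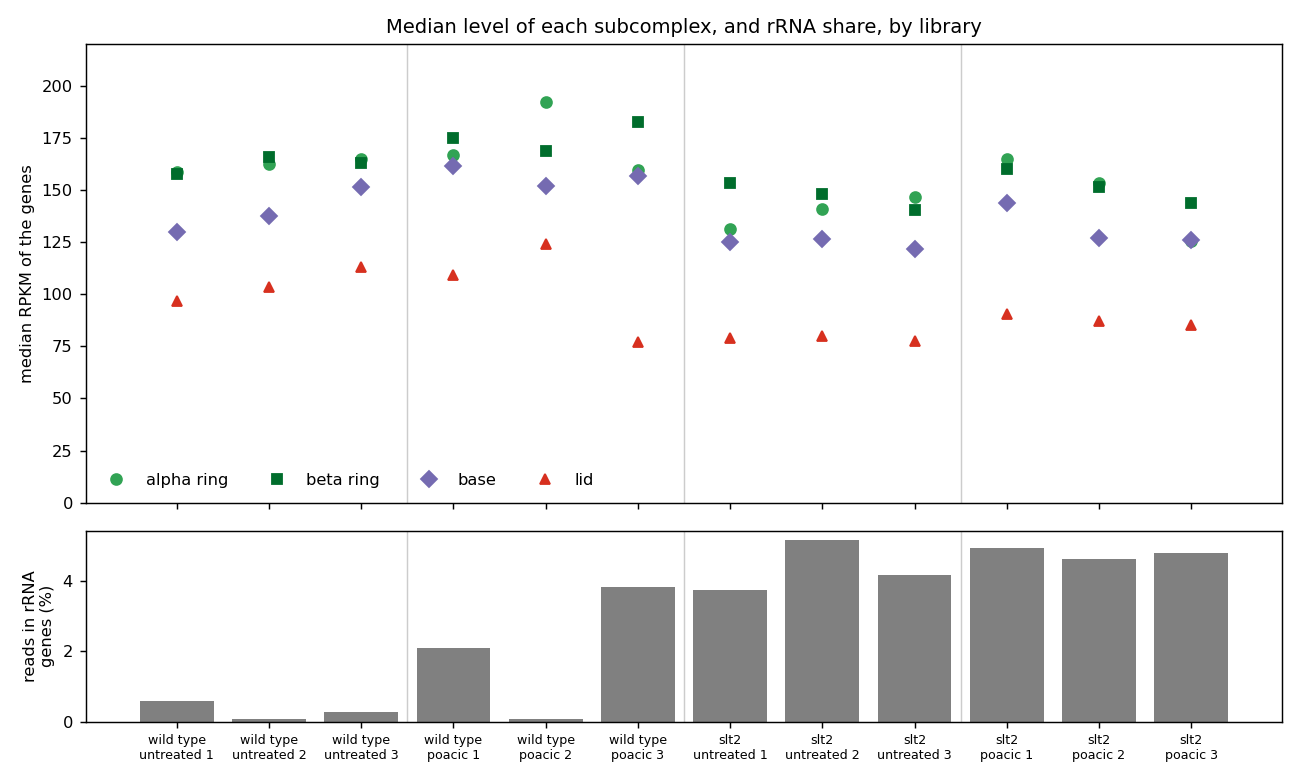
Median RPKM of the alpha ring, beta ring, base and lid genes (upper panel) and the percentage of reads in rRNA genes (lower panel) in each of the 12 libraries, with no error bars because each point is 1 library. The lid median is 77.2 RPKM in treated wild-type replicate 3, at 3.83% rRNA, and 77.5 to 90.7 RPKM in slt2, while the other 5 wild-type libraries read 96.6 to 124 RPKM.

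With the compound, 1 of 34 members was lower in slt2 than in wild type and 0 were higher, where 4.23% of all tested genes were lower and 3.99% higher. The member was RPT5, an ATPase subunit of the base (XV 545029–546333, plus strand), at 168, 177 and 153 RPKM in wild type and 139, 120 and 115 RPKM in slt2. The groups did not overlap, and the log2 difference was −0.41 (95% interval −0.66 to −0.16, adjusted p = 0.0438, limma with Benjamini-Hochberg correction). The call was lost without any 1 of 8 libraries: untreated wild-type replicate 2, treated wild-type replicates 1 and 2, the 3 untreated slt2 libraries and treated slt2 replicates 2 and 3 (adjusted p up to 0.154). It was also lost with rescaling (adjusted p = 0.0621), plain variances (0.0705), only the groups compared (0.132), and rRNA share as a covariate (−0.31, adjusted p = 0.254). Without the compound RPT5 read 133, 160 and 166 RPKM in wild type and 121, 124 and 118 RPKM in slt2 (−0.33, adjusted p = 0.12).

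Other members in treated cells leaned the same way. The log2 difference was below 0 in 31 of 34 (27 after rescaling), against 58.9% of all tested genes, with 10 members at an unadjusted p under 0.05 (22.9% of all genes) and medians of −0.25 in the core, −0.16 in the regulatory particle and −0.07 over all genes. Groups did not overlap for 13 members, all lower in slt2, and 9 of them were core genes. Over all tested genes 14.1% were lower and 8.94% higher without overlap. PRE3, the gene of the caspase-like subunit, read 206, 205 and 199 RPKM in wild type and 170, 162 and 143 RPKM in slt2 (−0.36, adjusted p = 0.0611). PRE4 read 153, 155 and 141 RPKM in wild type and 120, 134 and 105 RPKM in slt2 (−0.32, adjusted p = 0.0948). No lid gene was free of overlap. Treated wild-type replicate 3 was the lowest treated wild-type library for RPN3, RPN5, RPN7, RPN8, RPN9 and RPN12. For RPN6 and RPN11 it was treated wild-type replicate 2 (124 and 109 RPKM). Leaving out treated wild-type replicate 3 took the calls over all genes, in either direction, from 511 to 874. In that fit 6 members were called lower (PRE8, SCL1, RPN3, RPN5, RPN8 and RPT5). Without untreated wild-type replicate 3 there were 2 (PRE3 and RPT5). The calls over all genes are not given for that fit, so its count cannot be read as particular to the members.

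**Figure D5:**
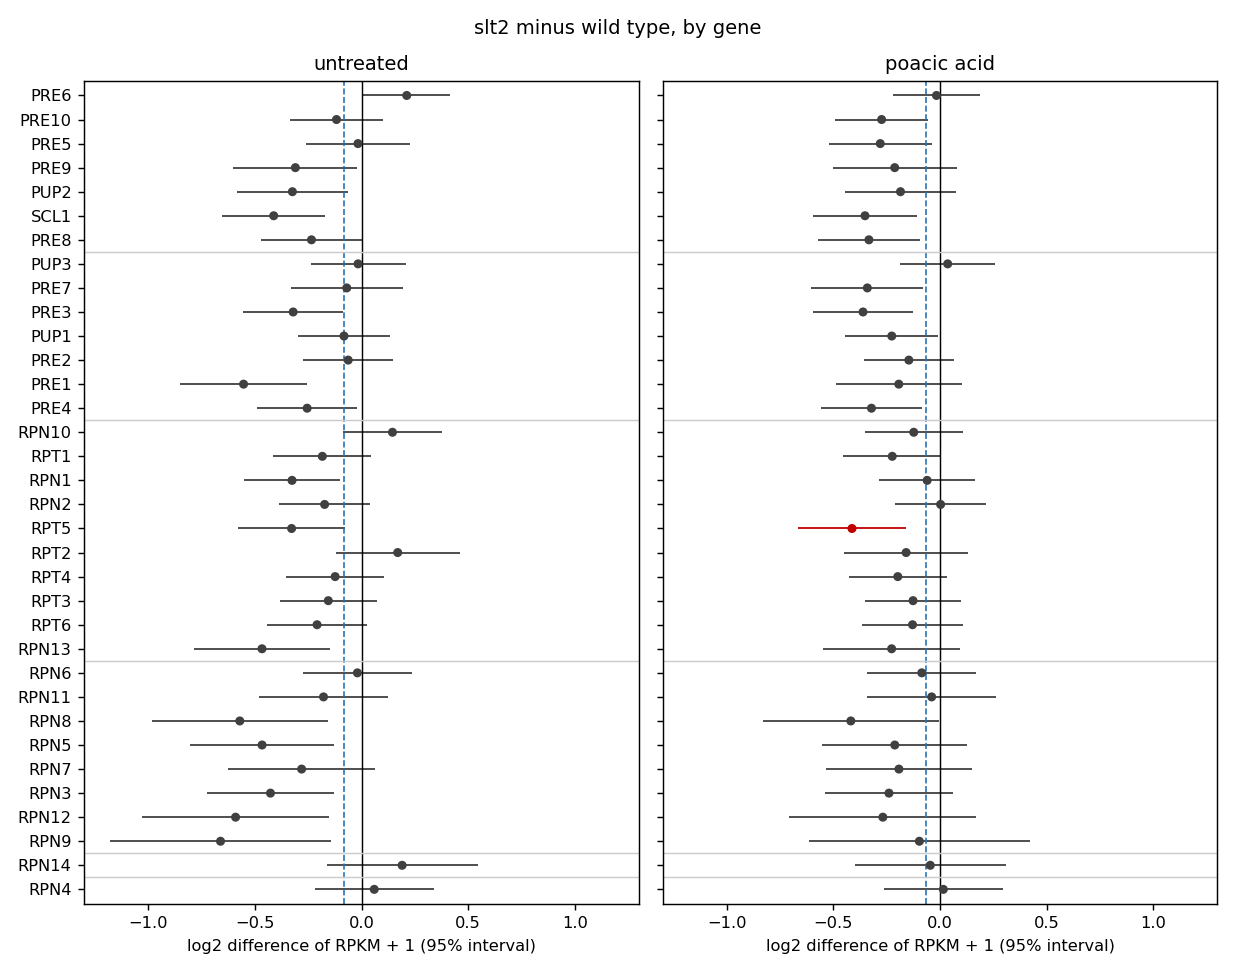
Log2 difference of RPKM + 1 between slt2 and wild type (horizontal axis) for each proteasome gene without (left) and with (right) poacic acid, 3 libraries per group. Points are limma estimates, bars 95% intervals, red a call at adjusted p under 0.05, the solid line 0 and the dashed line the median of all tested genes; RPT5 at −0.41 with the compound is the 1 call, and RPN9 at −0.66 without it is the lowest value.

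Replicate spread differed between members. The coefficient of variation had a median of 8.34% in untreated wild type, 7.34% in treated wild type, 4.39% in untreated slt2 and 8.07% in treated slt2 over the 33 members other than RPN4. It was 9.11 to 13.8% over all genes of at least 40 RPKM. The largest was 40.9% for RPN9 in treated wild type, from values of 55.4, 77.0 and 32.1 RPKM. Across all 12 libraries the ratio of highest to lowest value was smallest for PUP3 (1.22) and largest for RPN9 (2.40).

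Genes that work with the proteasome were counted in the same way. Of 39 genes in 6 lists (assembly factors, associated proteins, substrate delivery, ubiquitin supply, regulators of Rpn4, and SEM1), 3 rose and 0 fell in wild type and 2 rose and 0 fell in slt2, where 3.87 and 5.29% of all tested genes rose. The difference of responses passed for 0. None differed between untreated strains and 1 was lower in treated slt2. Their medians were 0.14 in wild type and 0.15 in slt2. None of the 8 assembly factors passed in either response. SEM1, the small lid subunit outside the naming rule, averaged 118 ± 24.0 and 138 ± 21.7 RPKM in wild type without and with the compound (SD, n = 3).

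The ubiquitin gene UBI4, which encodes a chain of repeated ubiquitin units and is known as a stress gene, rose in both strains. It read 49.0, 53.0 and 50.3 RPKM in untreated and 88.0, 130 and 128 RPKM in treated wild type (log2 difference 1.15, adjusted p = 0.0352, limma with Benjamini-Hochberg correction). In slt2 it read 54.4, 61.0 and 32.4 RPKM untreated and 129, 134 and 64.1 RPKM treated (1.11, adjusted p = 0.0317). Its repeats are near-identical to each other and to other ubiquitin genes, so the value depends on how reads with several matches were counted. The wild-type call was lost without any 1 of the 3 untreated wild-type libraries or of treated wild-type replicates 2 and 3 (up to 0.127). The slt2 call was lost without untreated slt2 replicate 1 or 3 or treated slt2 replicate 1 or 2 (up to 0.142).

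The remaining calls of these lists were small. SPG5, a regulator of proteasome assembly in stationary phase, rose in wild type (27.9 ± 0.965 to 44.9 ± 11.5 RPKM, 0.64, adjusted p = 0.0223, up to 0.0813 without untreated wild-type replicate 1 or 2) and in slt2 (21.4 ± 1.25 to 32.6 ± 1.46 RPKM, 0.58, adjusted p = 0.0274). The slt2 call was lost without any 1 of the 3 untreated slt2 libraries or of treated slt2 replicates 1 and 2 (up to 0.118). UFD1, part of the Cdc48 segregase complex, rose in wild type (38.7 ± 0.898 to 51.0 ± 2.32 RPKM, 0.39, adjusted p = 0.0432), and lost its call without any 1 of the 12 libraries (0.0525 to 0.13) and with the replicate block (0.0537). PBA1, an assembly chaperone of the alpha ring, was lower in treated slt2 than in treated wild type (16.9 ± 1.20 and 25.0 ± 2.12 RPKM, −0.54, adjusted p = 0.0158, or 0.0503 without treated wild-type replicate 2 and 0.0857 without treated slt2 replicate 1). Each ± is an SD over 3 libraries.

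The values were also grouped by the presence of PACE. Besides the members, 43 tested genes held GGTGGCAAA in their window, UBI4 among them. Of these 4 rose with the compound in wild type and 4 in slt2, and 0 fell in either, where 3.87 and 5.29% of all tested genes rose. UBI4, already counted in the lists above, was among the genes that rose in each strain. Windows of neighbouring genes can overlap and both strands were searched, so the same site can count for more than a single gene. Their medians were 0.13 and 0.17, against 0.02 and 0.03 over all genes. Among the 33 members other than RPN4 the median wild-type log2 difference was 0.09 for the 27 with all 9 letters and 0.17 for the 6 without them. In slt2 these medians were 0.12 and −0.02. Of the 6, PRE5, PUP1 and RPN8 held the shorter form, and RPN10, RPN13 and RPN14 held neither form. The RPN10 and RPN13 windows held GGTGGCGAA, which is PACE with a G in place of an A, on the other and the gene's own strand. The grouping is thus by exact letters, not by presence and absence of any such element.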

How the data were processed

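Directional RNA libraries were made from depleted total RNA of 12 yeast samples, per the labels' protocols. Cultures were diluted to an OD of 0.2, grown to 0.5 and then treated. The values are RPKM as deposited by the authors, per the file headers, on build R64, per the submitters' processing notes. The sources used here do not name the aligner, the counting program or the strand setting. Decimal commas were read as points. With exon lengths, 99.0 to 99.1% of values above 0 were whole reads within 1% of a read, which gave the reads per library. A floor of 3 reads in 1 kb was 0.285 to 0.866 RPKM, for counting error only.

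Genes of at least 1 RPKM in at least 3 libraries (6222, all 34 members included) were fitted as log2(RPKM + 1) with limma 3.58.1 in R 4.3.3. This main fit used trended, robust variances, 1 mean per group over 12 libraries without pairing, and Benjamini-Hochberg adjustment over all tested genes (threshold 0.05). Fold changes are on that scale, which understates those of low genes. The fit was tested on simulated data. Any member could be named, and genes of the other 6 lists where they passed in any comparison. Members, lists and tests were chosen with earlier results of these data known. Per the design text each biological sample gave an untreated and a treated library, so same-numbered libraries of a strain were paired in the blocked fit. Their deviations from group means correlated at −0.14, 0.27 and −0.03 in wild type and 0.03, 0.23 and 0.33 in slt2. Between strains the number is only a name. A further 22 settings were run, 1 of them added after seeing the data.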

Additional observations from a re-analysis of the deposited data

How the results depend on the processing

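Counts of called members and directions of RPN4 not named here stayed as reported in the settings run: other pseudocounts and filters, rescaling, separate fits, plain variances, library weights, the replicate block, 12 fits without 1 library each, and rRNA share as a covariate. Depth limits RPN14 most. The causes were not tested. In wild type the count of members called higher was 1 in place of 0 (RPT2) with library weights and with the replicate block, and 0 to 1 without 1 library. In slt2 it was 0 in place of 1 with rescaling, plain variances and the replicate block, 2 with library weights (RPN1 and RPN2), and 0 to 1 without 1 library. Members lower in untreated slt2 numbered 8 in place of 0 when only the groups compared were fitted, 10 with library weights, 1 with replicate numbers as a block (PRE1), where the number is only a name, and 0 to 8 without 1 library. Members lower in treated slt2 numbered 0 in place of 1 with rescaling, only the groups compared, plain variances, the replicate block and the rRNA covariate, 9 with library weights, and 0 to 6 without 1 library. The share of all tested genes called is not given for the separate fits, library weights or the replicate block. It is also not given for fits without 1 library, apart from treated wild-type replicate 3. Those counts of members therefore cannot be read as particular to the members. The difference of responses of RPN4 ran from −0.161 to 0.0588 without 1 library, being above 0 without untreated wild-type replicate 1 (0.0588), treated wild-type replicate 2 (0.01) or treated slt2 replicate 3 (0.0052). Its strain difference ran from −0.0438 to 0.176 untreated and −0.0539 to 0.0742 treated. With rescaling the core median was −0.10 in the untreated and −0.18 in the treated strain comparison, in place of −0.18 and −0.25. The regulatory median was −0.06 with the rRNA covariate in the untreated strain comparison, and −0.02 without treated wild-type replicate 3 in the difference of responses, in place of −0.21 and 0.09. The calls of UBI4, SPG5, UFD1 and PBA1 were each lost in at least 1 of these settings with all 12 libraries, at adjusted p up to 0.0832, 0.0978, 0.165 and 0.0726 (limma).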
